A study of Homo sapiens with 16 samples.

Results

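The ZNF genes of human chromosome 19 were measured in 16 RNA sequencing libraries of 2 cell lines labelled as acute myeloid leukaemia, KG1A and U937. Members were chosen by a rule on position and name: a gene of the deposited counts table on chromosome 19 whose symbol is ZNF, a number and at most 1 letter. The rule finds 247 of the 34618 genes, which is 49.4% of the 500 genes with such a symbol in the table. It uses no measured level, but the set was proposed with results of these libraries known, so the values below describe the set and support nothing by themselves. By start position on GRCh37, 85 members lie on the short arm (19p) and 162 on the long arm (19q). The boundary set between them falls in a stretch with no member: the last on 19p is ZNF254, which starts at 24216276, and the first on 19q is ZNF536, which starts at 30719197.

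NEL was given at 10 µM to either line, with DMSO as its vehicle control, which makes 4 groups of 4 libraries: KG1A with DMSO, KG1A with NEL, U937 with DMSO and U937 with NEL. NEL is the submitters' abbreviation and is not spelled out in the labels, which give no treatment time either. RPMI medium with dialyzed serum was used throughout, and no group carries a genetic change made for the study. Each line stands for 1 cell line only, and separate cultures behind the 4 libraries of a group are not stated, so every p-value measures the spread between libraries, which may be technical.

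Most ZNF genes of chromosome 19 arose by tandem duplication and encode proteins in which an array of C2H2 zinc fingers reads DNA and a KRAB domain recruits the corepressor TRIM28. TRIM28 brings the histone methyltransferase SETDB1 and HP1 proteins, and the resulting chromatin silences many transposable elements. ZNF91 and ZNF93 are known to bind and repress SVA and LINE-1 elements, and ZNF274 is known to bind the 3′ ends of other zinc finger genes and to recruit the same machinery there. By the GENCODE v29 coding sequences of the same gene IDs, 244 members have a protein, of which 207 hold a KRAB domain (75 of 82 on 19p and 132 of 162 on 19q). Here KRAB means a match to a pattern for the core of its box in each gene's longest protein. A divergent box may be missed, so some members given as without KRAB may have one. The median member has 12 fingers, and ZNF208 has the most with 36. Of the 247 genes, 54 overlap another member and 150 overlap any gene of the table. The strand setting of the read counting is not given in the sources used here, and reads of close paralogs may be shared, so values of overlapping or near-identical members are uncertain.

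The start regions of some of the named members are shown first. Whether they have a part in the members' levels or NEL changes was not tested. Each is RefSeq's window of 250 bases before to 50 after the gene's start (GRCh38.p14), 5′ to 3′ along the gene, with CpG in capitals. ZNF93 (chr19:19900696-19900995, plus strand), ZNF91 (chr19:23395422-23395721, minus strand), ZNF493 (chr19:21396883-21397182, plus strand) and ZNF675 (chr19:23687163-23687462, minus strand) lie in the 19p cluster next to the centromere. ZNF461 (chr19:36666788-36667087, minus strand) and ZNF551 (chr19:57681727-57682026, plus strand) lie on 19q.
ZNF93: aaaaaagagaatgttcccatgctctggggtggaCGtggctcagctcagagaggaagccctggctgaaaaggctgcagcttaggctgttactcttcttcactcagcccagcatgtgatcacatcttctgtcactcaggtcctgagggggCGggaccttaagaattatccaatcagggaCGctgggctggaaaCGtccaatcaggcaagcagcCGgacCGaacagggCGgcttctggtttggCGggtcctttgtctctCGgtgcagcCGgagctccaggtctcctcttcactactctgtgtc
ZNF91: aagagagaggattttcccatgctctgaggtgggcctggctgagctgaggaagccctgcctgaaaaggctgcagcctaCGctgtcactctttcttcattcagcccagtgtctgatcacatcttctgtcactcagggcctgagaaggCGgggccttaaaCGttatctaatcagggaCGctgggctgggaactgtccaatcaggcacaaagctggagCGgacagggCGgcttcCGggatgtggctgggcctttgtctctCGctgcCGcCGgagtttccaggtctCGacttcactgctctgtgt
ZNF493: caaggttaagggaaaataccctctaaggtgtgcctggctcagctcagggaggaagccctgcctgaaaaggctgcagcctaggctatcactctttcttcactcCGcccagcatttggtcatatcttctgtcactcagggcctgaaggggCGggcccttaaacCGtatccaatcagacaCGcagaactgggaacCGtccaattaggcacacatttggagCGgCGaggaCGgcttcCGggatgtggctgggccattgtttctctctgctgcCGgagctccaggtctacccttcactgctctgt
ZNF675: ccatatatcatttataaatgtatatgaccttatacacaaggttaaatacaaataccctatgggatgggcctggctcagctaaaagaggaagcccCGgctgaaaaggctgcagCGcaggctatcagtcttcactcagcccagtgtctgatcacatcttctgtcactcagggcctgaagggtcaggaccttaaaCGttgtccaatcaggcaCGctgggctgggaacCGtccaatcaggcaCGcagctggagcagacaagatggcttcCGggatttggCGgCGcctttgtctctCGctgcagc
ZNF461: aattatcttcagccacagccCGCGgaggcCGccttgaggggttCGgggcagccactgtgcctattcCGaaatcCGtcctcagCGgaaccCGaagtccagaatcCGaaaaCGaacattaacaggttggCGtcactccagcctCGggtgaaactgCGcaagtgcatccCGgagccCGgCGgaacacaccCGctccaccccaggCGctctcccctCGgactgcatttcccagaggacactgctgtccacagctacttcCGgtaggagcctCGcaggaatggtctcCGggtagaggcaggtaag
ZNF551: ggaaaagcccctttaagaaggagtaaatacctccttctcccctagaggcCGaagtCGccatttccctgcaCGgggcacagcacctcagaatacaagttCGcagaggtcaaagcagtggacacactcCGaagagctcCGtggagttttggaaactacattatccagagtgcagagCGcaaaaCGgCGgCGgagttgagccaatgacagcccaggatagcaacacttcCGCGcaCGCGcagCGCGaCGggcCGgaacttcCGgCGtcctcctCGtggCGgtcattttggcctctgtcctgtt

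RefSeq held a window for 213 of the 247 members. The median member had 20 CpG in 300 bases, against 14 over all 27305 RefSeq windows, with 15.5 on 19p (72 windows) and 23 on 19q (141). The 28 windows of the cluster next to the centromere had a median of 10 CpG. They were also alike: in global alignments their median pairwise identity was 79.2% over 378 pairs, against 59.3% over 1378 pairs among the members nearest the 19q end. Identity was not computed for other clusters. ZNF91 and ZNF93 were 84.7% identical, ZNF493 and ZNF91 82.7%, and ZNF675 and ZNF93 72.7%. Motifs were searched on both strands. CCAAT, the NF-Y box, stood in all 28 windows of the cluster (100%), in 81.9% of the 19p windows, in 39% of the 19q windows and in 35.7% of all windows. GGGCGG, read by SP factors, was in 81.9% of 19p and 60.3% of 19q windows (44.6% of all). CCGGAAG, read by ETS factors, was in 37.5% and 49.6% (10.7% of all). Within the cluster next to the centromere, GGGCGG was in 75% and CCGGAAG in 71.4% of the 28 windows. CACGTG, the E-box, was in 0% of 19p and 6.4% of 19q windows (7.4% of all). No motif of these contains another. A match describes letters in a window and is not evidence of binding.

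**Figure D1:**
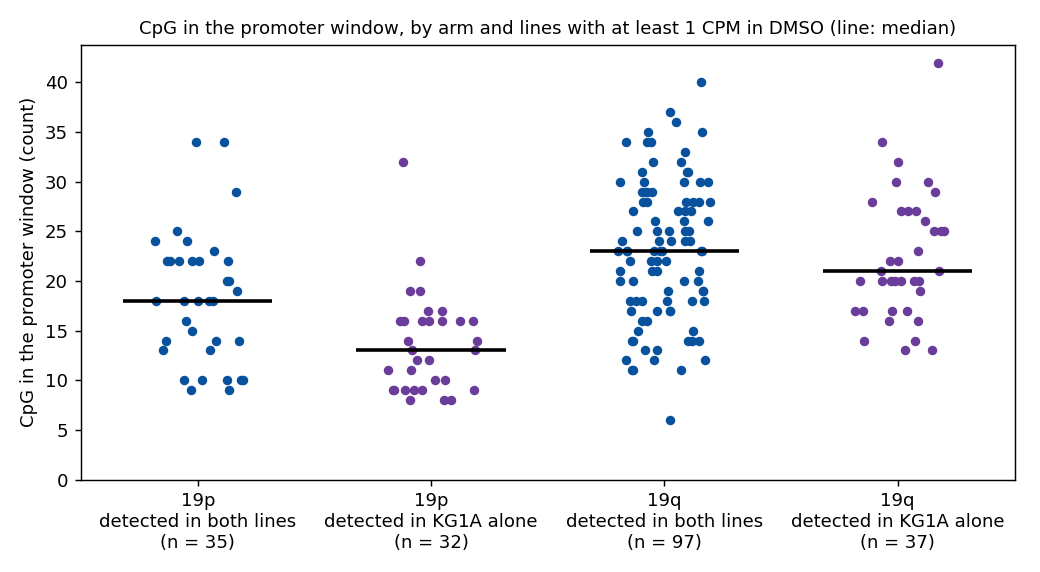
CpG dinucleotides (vertical axis, count in 300 bases) in the start region of each member with a RefSeq window, by arm and by the lines that express the gene in DMSO at 1 CPM or more; each point is a gene and each bar a median. Members on 19p seen in KG1A alone have a median of 13 (n = 32) and those in both lines 18 (n = 35); on 19q the medians are 21 (n = 37) and 23 (n = 97).

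Levels are given as CPM, the reads of a gene brought to 1 common library total after TMM scaling, which evens out differences in composition between libraries. Library totals ran from 10641567 to 11777684 reads, so 3 reads correspond to 0.255 to 0.283 CPM. All members together held 0.544% to 0.575% of the reads in KG1A with DMSO and 0.603% to 0.643% with NEL, and 0.242% to 0.252% and 0.240% to 0.256% in U937. Log2 fold changes, their standard errors (SE) and p-values come from edgeR's quasi-likelihood test over all genes that pass its filter for low counts, with Benjamini-Hochberg adjustment over all of them. A gene is called higher or lower at an adjusted p under 0.05. The 2 lines carried different defining markers in DMSO: CD34 was at 888 CPM in KG1A and 0.33 in U937, and the myeloid genes LYZ and CD33 were at 0.0468 and 0.256 CPM in KG1A and at 71.4 and 89.6 in U937. MPO, a defining myeloid gene, was at 0.0691 and 0.400 CPM in KG1A and U937, and the T-cell gene CD3D was at 118 CPM in KG1A. The summed level of the 6 myeloid markers ran from 237 to 265 CPM in KG1A with DMSO and from 274 to 300.4 with NEL, and from 694 to 747 and 1001 to 1072 in U937. In KG1A nearly all of that sum was ITGB2, which many leukocytes express, at 248 CPM with DMSO and 277 with NEL, and the other 5 markers were at 2.55 CPM or less with DMSO. Its part in the members' NEL changes was not tested. In bulk RNA, fewer cells of a type and less RNA per cell cannot be told apart.

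KG1A expressed far more of these genes than U937. At a mean of 1 CPM or more, 227 of the 247 members were detected in KG1A with DMSO and 149 in U937 with DMSO. With NEL the counts were 229 and 150. In DMSO, 147 members were detected in both lines, 80 in KG1A alone, 2 in U937 alone and 18 in neither. On 19p, 39 were detected in both lines and 36 in KG1A alone, and on 19q 108 and 44. Not a single read was counted for 6 members in KG1A with DMSO and for 48 in U937 with DMSO, and such a 0 allows up to 3 reads over the 4 libraries of a group.

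The median level of the detected members per gene length was 4.07 RPKM (the reads of a gene over its exon length and its library's total) in KG1A with DMSO and 2.06 in U937 with DMSO. It was 4.92 and 2.03 RPKM on 19p and 3.39 and 2.06 on 19q. ZNF146, a short C2H2 protein without a KRAB domain (ENSG00000167635, chr19:36705504-36729676 on GRCh37), had the highest RPKM in both lines, at 80.2 ± 3.26 (SD, n = 4) in KG1A and 60.4 ± 4.98 in U937 with DMSO. ZNF90 came next in KG1A with 29.9 ± 1.33 RPKM, and was at 20.1 ± 0.82 in U937. ZNF428, which has a single finger by the pattern used, stood at 18.9 ± 1.57 RPKM in KG1A and 23.2 ± 1.57 in U937. ZNF317, ZNF121 and ZNF266 followed, between 9.05 and 16.6 RPKM in both lines.

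**Figure D2:**
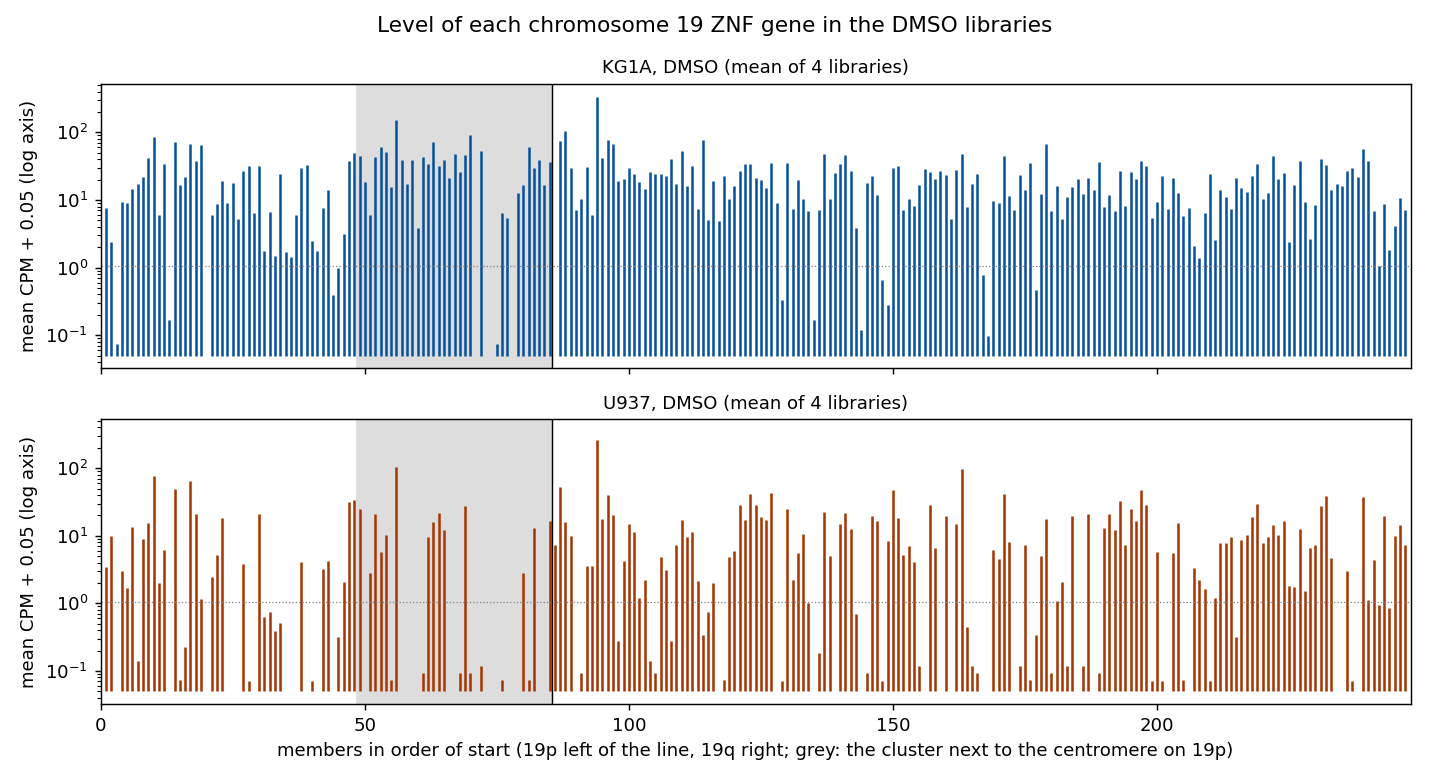
Mean CPM + 0.05 over 4 DMSO libraries (log axis) of each of the 247 members in order of start, KG1A above and U937 below; the dotted line marks 1 CPM, the black line the centromere and the grey field the 37 genes of the 19p cluster next to it. Many members near the bottom of the U937 panel are well above that line in the KG1A panel.

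Between the DMSO libraries of the 2 lines, 229 members could be tested, and 193 were called lower and 23 higher in U937. Over all 15181 genes tested, 43.4% were called lower and 43% higher in U937. The libraries of the lines did not overlap in 12388 of these genes and in 206 of the members. The median member was 3.24-fold lower in U937 (log2 -1.70), against a median of -0.001 over all genes tested. Members on 19p were 7.51-fold lower (73 of 75 called lower, 1 higher) and members on 19q 2.31-fold lower (120 of 154 called lower, 22 higher). These medians count a gene with 0 to 3 reads in a line at its bound or read ratio. ZNF genes of other chromosomes had a median log2 difference of -0.26 (110 of 212 lower, 74 higher), and other genes of chromosome 19 one of 0.10 (356 of 979 lower, 432 higher). Members with a KRAB domain had a median of -1.89 (172 of 192 lower) and those without one of -0.24 (19 of 35 lower, 10 higher).

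A group of members was present in KG1A and at or near 0 in U937. Of the 208 members at 5 CPM or more in KG1A with DMSO, 57 (27.4%) had at most 3 reads over all 4 U937 DMSO libraries, and 30 of them had none. Among all genes at 5 CPM or more in KG1A, 498 of 11134 (4.47%) did so. The share was 9.04% for ZNF genes of other chromosomes and 2.02% for other genes of chromosome 19. In the opposite direction it was 1 of 110 members (0.91%), against 3.44% of all genes. These limits of 5 CPM and 3 reads were set after the values had been seen. With 2 or 10 CPM in place of 5 the share was 27.3% and 25.9%, and with 0 or 10 reads in place of 3 it was 14.4% and 30.3%.

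The silent members were unevenly spread along the chromosome. Grouping members whose neighbours start within 1 Mb gives 16 neighbourhoods, numbered along each arm. The 19p cluster next to the centromere (neighbourhood 19p-5, ZNF101 to ZNF254, chr19:19779605-24312654 on GRCh37) has 37 members, of which 31 were at 5 CPM or more in KG1A and 17 of these (54.8%) silent in U937. In order of start these 31 formed 15 alternating runs of silent and other members, so silent genes lay among expressed ones. In the 19p cluster from ZNF653 to ZNF791 (19p-3) 7 of 17 were silent (41.2%), and in the 19q cluster from ZNF175 to ZNF331 (19q-10) 15 of 36 (41.7%). In the 19q cluster from ZNF565 to ZNF573 (19q-4) only 2 of 25 were silent (8%), and in the cluster at the end of 19q (19q-11) 10 of 50 (20%). By domain, 53 of 174 members with KRAB (30.5%) and 4 of 33 without (12.1%) were silent in U937.

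ZNF493, ZNF486, ZNF681 and ZNF626, all KRAB zinc finger genes of 19p-5, had 0 reads in U937 with DMSO. ZNF493 (ENSG00000196268, chr19:21579921-21610375) was at 53.1, 47.0, 46.5 and 46.3 CPM in the KG1A DMSO libraries and at 0 in all 8 U937 libraries. Its level in U937 with DMSO was at least 723-fold lower, taking 3 reads over the 4 libraries as the limit. On the same basis ZNF486 was at least 586-fold lower, ZNF681 at least 581-fold and ZNF626 at least 576-fold. ZNF44 in 19p-3 was at least 496-fold lower and ZNF615 in 19q-10 at least 423-fold. The KG1A libraries of these 6 genes lay far above every U937 library.

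Known transposon repressors were on both sides of this divide. ZNF91 (ENSG00000167232, chr19:23487793-23578362, 31 fingers) was at 56.6, 62.2, 56.6 and 64.6 CPM in KG1A with DMSO and had 1 read in all 4 U937 DMSO libraries. The ratio was 2700, with an exact 95% counting interval of 484 to 106700. ZNF93 (ENSG00000184635, chr19:20011722-20046384), whose start region is 84.7% identical to that of ZNF91, was at 10.8, 9.83, 9.55 and 10.97 CPM in U937 and 49.2, 47.1, 54.4 and 51.5 in KG1A. It was 5.20-fold lower in U937 (log2 -2.38, SE 0.074, edgeR adjusted p 1.11e-14), with no overlap between the lines. ZNF417, known to repress HERV-K elements with its near copy ZNF587, was 3.15-fold lower in U937 (log2 -1.66, SE 0.13, edgeR adjusted p 3.04e-09). ZNF587 itself was 1.12-fold higher there (log2 0.17, SE 0.064, edgeR adjusted p 0.024), and the 2 genes may share reads. That small difference was not called without KG1A library 1 or 4 or U937 library 1 (edgeR adjusted p 0.0812, 0.0628 and 0.0888).

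ZNF331, an imprinted gene, was at 34.1, 38.2, 34.1 and 40.2 CPM in KG1A with DMSO and had 2 reads in U937 with DMSO, a ratio of 825 (exact 95% interval 228 to 6815). ZNF350, also called ZBRK1 and known as a BRCA1-binding repressor, was at 15.9, 16.2, 15.5 and 19.6 CPM in KG1A and had 3 reads in U937, a ratio of 252 (86.0 to 1226). ZNF224, a repressor that binds WT1, and ZNF274 were expressed in both lines and lower in U937, by 2.26-fold (log2 -1.17, SE 0.075, edgeR adjusted p 1.67e-10) and 1.61-fold (log2 -0.69, SE 0.064, edgeR adjusted p 2.46e-08).

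Few members were higher in U937. ZNF536, a large brain zinc finger gene without KRAB, was at 7.15, 6.82, 9.02 and 6.19 CPM in U937 with DMSO and at 0 in all 8 KG1A libraries, so it was at least 105-fold higher. ZNF114 was at 7.96, 8.06, 8.66 and 8.76 CPM in U937 and at 0.0913 to 0.372 CPM in KG1A, a log2 difference of 5.02 (SE 0.23, edgeR adjusted p 2.52e-12). ZNF555, the single 19p member called higher, had a log2 difference of 1.97, and ZNF552, ZNF324B and ZNF584 on 19q had 1.25, 1.17 and 1.06. In each of these 6 genes the lines did not overlap, which was a condition for naming them.

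In KG1A, the share of members called higher with NEL was near that of all genes, and the share called lower was smaller. Of the 230 members tested, 62 were called higher (27%) and 28 lower (12.2%). Over all 14250 genes tested, 23.6% were called higher and 23.6% lower. The DMSO and NEL libraries did not overlap in 6010 of these genes and in 77 of the members. The median member changed by 0.03 on the log2 scale, and all genes by -0.004. The arms differed in their counts: 32 of 76 tested members on 19p were higher and 6 lower (median 0.15), against 30 higher and 22 lower of 154 on 19q (median -0.014). ZNF genes of other chromosomes gave 39 higher and 45 lower of 208 (median -0.025), other genes of chromosome 19 gave 219 and 192 of 889 (median 0.022), and the 3381 genes within the members' middle range of level (5.42 to 23.2 CPM) gave 810 and 651 (median 0.015). Changes were small: 2 members, ZNF93 and ZNF541, were called higher by 2-fold or more, and 0 were called lower by as much. ZNF541 had only 26 reads over the 4 DMSO libraries and 74 over the 4 NEL libraries. The split leaned further to higher under limma-trend on log2(RPKM + 0.5), with 70 higher and 13 lower, and there the 19q median was 0.046.

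The 19p cluster next to the centromere carried most of the calls on its arm. Of its 32 tested members, 21 were called higher and 0 lower by edgeR, with a median log2 change of 0.26 (1.19-fold). With each library left out in turn 18 to 21 were higher, and 19 and 18 were higher in the odd-numbered and the even-numbered libraries alone. The summed level of its 37 members was 1200, 1242, 1190 and 1241 CPM with DMSO and 1493, 1538, 1483 and 1571 CPM with NEL. All 4 NEL libraries lay above all 4 DMSO libraries. The sum of all 19p members went from 2136 ± 56.6 (SD, n = 4) to 2460 ± 69.0 CPM and that of 19q from 3574 ± 64.0 to 3627 ± 72.1 CPM. In 19p-3, 7 of 25 tested members were higher and 2 lower (median 0.20), in 19p-2 3 and 4 of 14, in 19q-4 7 and 5 of 27, in 19q-7 3 and 3 of 20, in 19q-10 7 and 4 of 36 and in 19q-11 11 and 7 of 58.

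**Figure D3:**
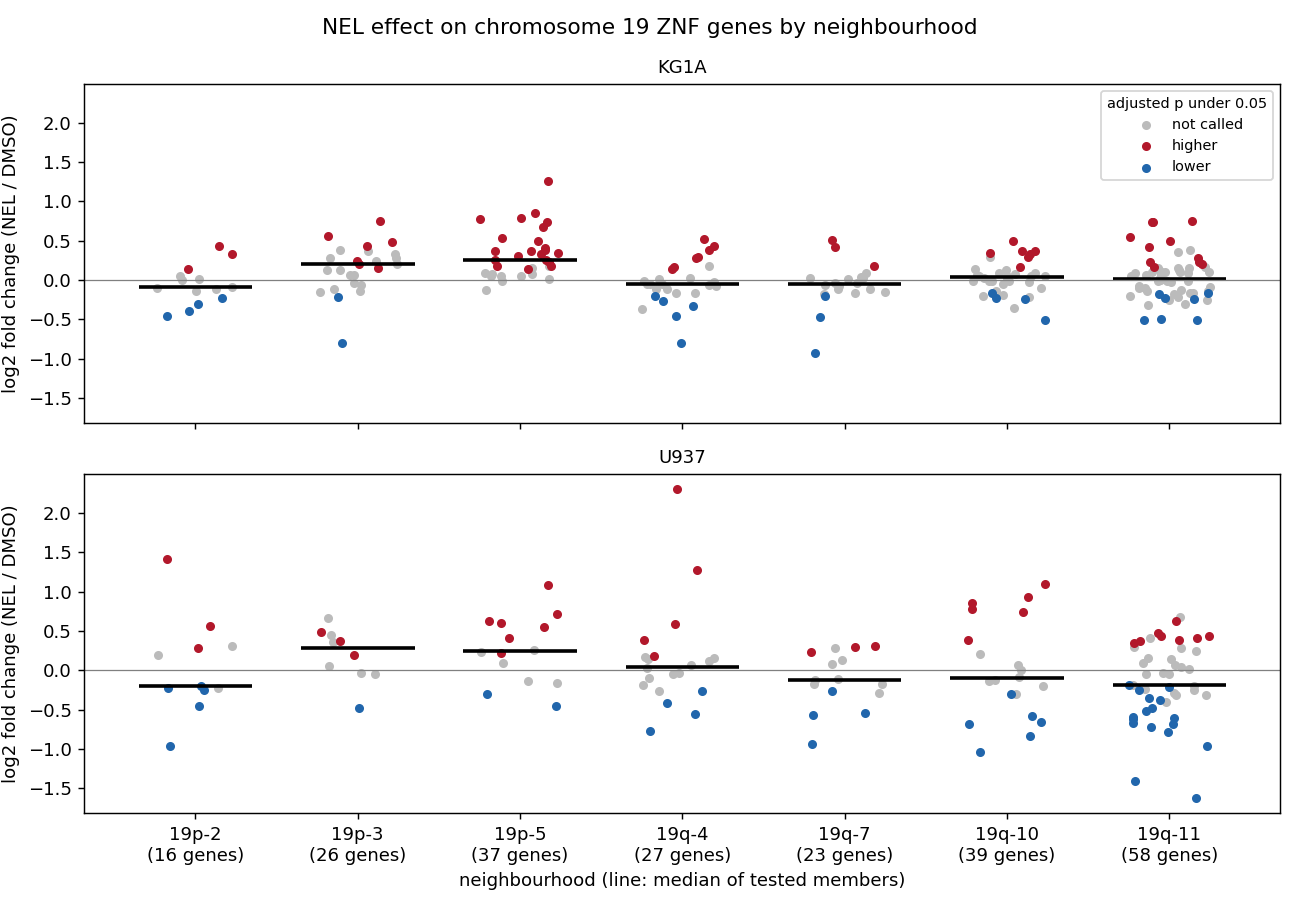
Log2 fold change of NEL over DMSO (vertical axis) of each tested member in KG1A (above) and U937 (below), for the 7 neighbourhoods with the most tested members; colours give the call at an adjusted p under 0.05 and bars the medians. The 19p-5 column in KG1A holds 21 red points and no blue one among 32 tested members. Its U937 column holds 7 red and 2 blue points among 14. Over the 14 members tested in both lines, KG1A had 8 higher and 0 lower.

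ZNF93 rose most among members at 2 CPM or more in KG1A. It was at 49.2, 47.1, 54.4 and 51.5 CPM with DMSO and at 123.9, 119, 121 and 121 CPM with NEL. The increase was 2.38-fold (log2 1.25, SE 0.047, edgeR adjusted p 2.32e-10), and the groups were far apart. ZNF257, a neighbour in 19p-5, went from 53.8, 52.0, 53.1 and 55.6 to 91.2, 95.6, 88.5 and 94.8 CPM. Every NEL library again exceeded every DMSO library, and the change was 1.72-fold (log2 0.78, SE 0.044, edgeR adjusted p 6.68e-09). ZNF682 went from 13.98, 16.5, 15.3 and 15.5 to 27.0, 26.1, 27.3 and 25.8 CPM, a 1.72-fold rise (log2 0.78, SE 0.07, edgeR adjusted p 6.55e-07) without overlap. ZNF66 was lower in level, at 3.29 to 4.54 CPM with DMSO and 6.61 to 7.35 with NEL (1.81-fold, log2 0.85, SE 0.13, edgeR adjusted p 8.19e-05).

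Other members of the cluster rose less. ZNF85 rose by 0.67, ZNF730 by 0.74, ZNF724 by 0.54, ZNF681 by 0.41 and ZNF714 by 0.39 on the log2 scale. ZNF675, also called TIZ and known as a regulator of TRAF6 signalling, went from 27.4, 32.1, 30.8 and 30.0 to 37.7, 41.8, 37.3 and 39.5 CPM. The groups did not overlap, and it rose 1.29-fold (log2 0.37, SE 0.063, edgeR adjusted p 0.000235). ZNF91 went from 56.6, 62.2, 56.6 and 64.6 to 68.7, 68.3, 64.7 and 71.3 CPM. Its rise was 1.13-fold (log2 0.18, SE 0.054, edgeR adjusted p 0.0142), and without DMSO library 3 the adjusted p was 0.0508. ZNF90, the most abundant member of the cluster, was not called (log2 0.055, SE 0.04, edgeR adjusted p 0.279), nor was ZNF43 (log2 -0.019). Outside the cluster, ZNF442 on 19p and ZNF132 on 19q were called higher by 0.76 and 0.75 on the log2 scale, at 1.48 to 3.31 and 1.58 to 3.43 CPM in KG1A. The ZNF442 call was lost in the even-numbered libraries alone (edgeR adjusted p 0.0657). That of ZNF132 was lost in the odd-numbered libraries alone (edgeR adjusted p 0.0554).

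On 19q, ZNF331 went from 34.1, 38.2, 34.1 and 40.2 to 42.8, 49.2, 44.8 and 52.7 CPM in KG1A. All NEL libraries were above all DMSO libraries, and the rise was 1.29-fold (log2 0.36, SE 0.074, edgeR adjusted p 0.00104). ZNF584 went from 6.24, 9.63, 9.20 and 9.95 to 14.6, 14.5, 12.8 and 16.6 CPM, a 1.66-fold rise (log2 0.73, SE 0.13, edgeR adjusted p 0.000324) without overlap.

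ZNF285 in 19q-7 fell most in KG1A, from 16.3, 19.1, 18.7 and 18.2 to 8.11, 9.08, 11.1 and 9.74 CPM. The groups were apart, and the change was 1.91-fold (log2 -0.93, SE 0.1, edgeR adjusted p 3.53e-06). ZNF507, a 19q gene without KRAB, went from 71.1, 79.6, 73.1 and 74.1 to 48.1, 54.6, 51.9 and 56.5 CPM (log2 -0.50, SE 0.056, edgeR adjusted p 4.78e-06). ZNF653, a 19p member without KRAB, fell by 0.80 on the log2 scale, ZNF565 by 0.80, ZNF30 by 0.53 and ZNF880 by 0.51, all without overlap between the groups. ZNF565 overlaps the much more abundant ZNF146 on the opposite strand. ZNF350 was lower with a log2 change of -0.24 (SE 0.092, edgeR adjusted p 0.0461). The call was lost without DMSO library 2 or 4 (edgeR adjusted p 0.0577 and 0.168) or without NEL library 1, 3 or 4 (0.0666, 0.119 and 0.0833).

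ZNF224 and ZNF274 were not called in KG1A (log2 -0.15, edgeR adjusted p 0.0692, and log2 0.15, edgeR adjusted p 0.053). With the library number as a block they were called, at edgeR adjusted p-values of 0.00389 and 0.00119. They were also called without DMSO library 1 or NEL library 4 (ZNF224, edgeR adjusted p 0.0413 and 0.0438) and without DMSO library 2 or NEL library 3 (ZNF274, 0.00762 and 0.0335). ZNF417 had a log2 change of -0.010 (SE 0.093, edgeR adjusted p 0.941), and ZNF146 one of -0.020 (SE 0.045, edgeR adjusted p 0.74). ZNF587 was called lower in KG1A (log2 -0.18, edgeR adjusted p 0.0449), a call lost in 11 of 20 alternative settings.

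**Figure D4:**
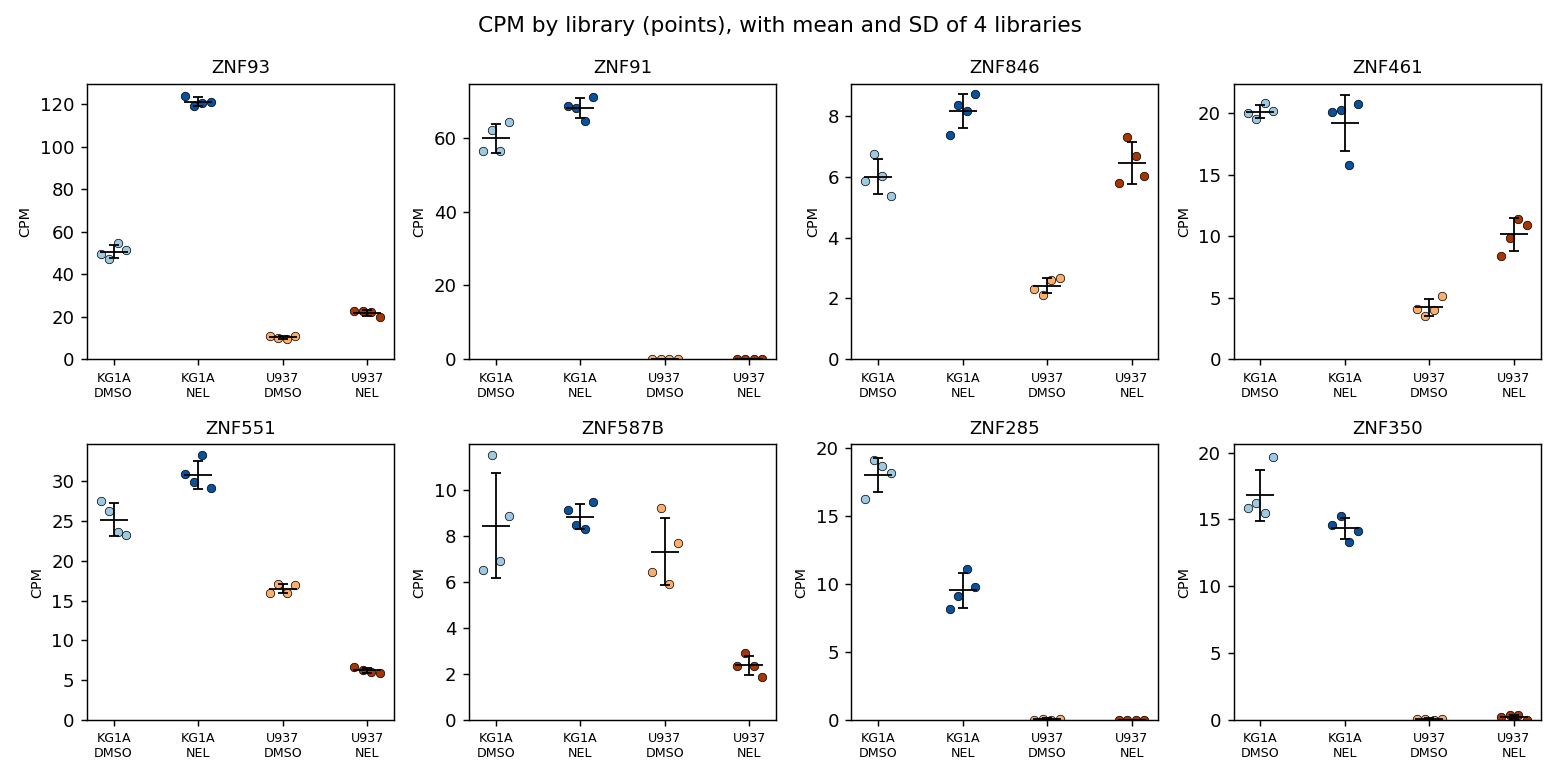
CPM (vertical axis, from 0) of 8 members in each library (points), with the mean and SD of 4 libraries, by line and treatment. ZNF93 rises with NEL in both lines, ZNF846, ZNF461, ZNF551 and ZNF587B change mainly in U937, ZNF285 falls in KG1A, and ZNF91, ZNF285 and ZNF350 lie at or near 0 in U937.

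In U937, NEL moved members in both directions. Of 154 members tested, 40 were called higher (26%) and 45 lower (29.2%), against 34.6% higher and 34.7% lower among all 14390 genes tested. The DMSO and NEL libraries did not overlap in 8979 of all genes tested and in 74 of the members. The median member changed by -0.036 on the log2 scale and all genes by -0.004. On 19p, 15 of 40 were higher and 9 lower (median 0.21). On 19q, 25 of 114 were higher and 36 lower (median -0.081). ZNF genes of other chromosomes gave 58 higher and 63 lower of 188 (median -0.023), and other genes of chromosome 19 gave 284 and 420 of 955 (median -0.11). Members without KRAB gave 4 higher and 14 lower of 30 (median -0.23), those with KRAB 35 and 31 of 123 (median 0.032). The signs of the small medians depend on the scaling: under limma-trend on log2(RPKM + 0.5) the median of all genes was 0.074, that of the members 0.043 and that of 19q 0.005. In the 19p-5 cluster 7 of 14 tested were higher and 2 lower (median 0.25), and at the end of 19q (19q-11) 8 of 47 were higher and 17 lower (median -0.19). The summed 19p level went from 695.5 ± 18.3 (SD, n = 4) to 711 ± 10.8 CPM, and its 19q level from 1863 ± 39.4 to 1706 ± 40.5 CPM.

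**Figure D5:**
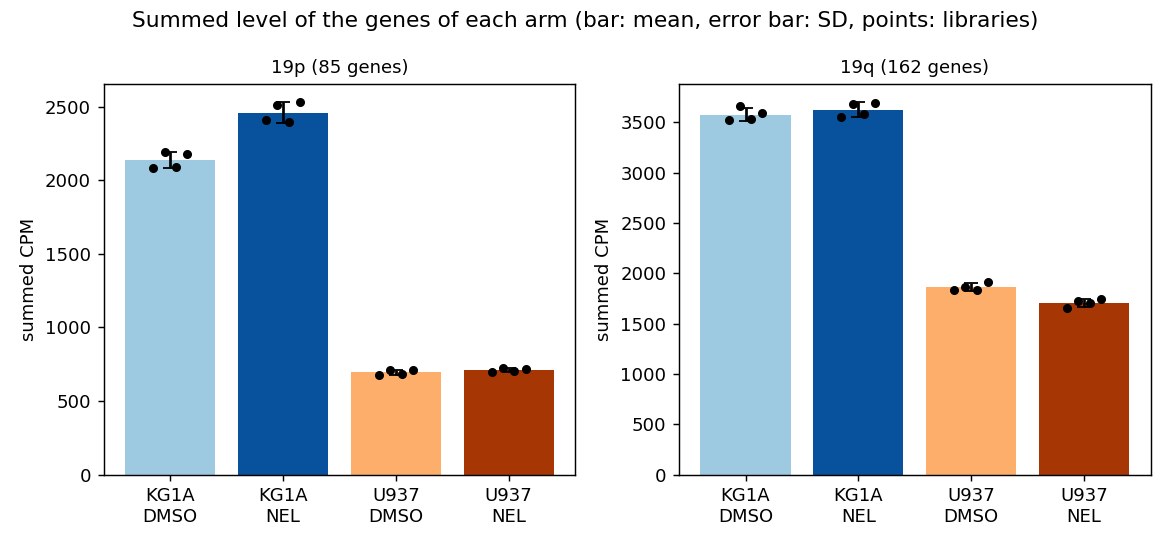
Summed CPM (vertical axis, from 0) of the 85 members on 19p and the 162 on 19q in each group; bars are means, error bars SD and points the 4 libraries. The 19p sum in KG1A is higher with NEL (2460) than with DMSO (2136), and both sums are far lower in U937.

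ZNF93 rose in U937 too, from 10.8, 9.83, 9.55 and 10.97 to 22.7, 22.8, 22.01 and 19.7 CPM. The groups did not overlap, and the rise was 2.12-fold (log2 1.09, SE 0.083, edgeR adjusted p 5.28e-08). Its NEL effect did not differ detectably between the lines (difference, U937 less KG1A, -0.18 on the log2 scale, SE 0.09, edgeR adjusted p 0.11), though it was called without KG1A DMSO library 3 (edgeR adjusted p 0.0495) and by limma-trend on log2(RPKM + 0.5) (-0.27, limma adjusted p 0.00679). ZNF846, a KRAB gene of 19p-2, went from 2.32, 2.13, 2.59 and 2.66 to 5.80, 7.32, 6.70 and 6.03 CPM, a 2.67-fold rise (log2 1.41, SE 0.14, edgeR adjusted p 7.87e-07). ZNF461 on 19q went from 4.11, 3.54, 4.02 and 5.13 to 8.39, 9.87, 11.4 and 10.95 CPM, a 2.42-fold rise (log2 1.27, SE 0.14, edgeR adjusted p 1.71e-06). Neither gene's groups overlapped.

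Several 19q-10 members rose in U937. ZNF83 went from 37.4, 44.2, 39.3 and 43.0 to 83.8, 91.0, 78.3 and 96.0 CPM, a 2.14-fold rise (log2 1.10, SE 0.071, edgeR adjusted p 9.9e-09). ZNF160, reported as a repressor of TLR4, went from 17.5, 16.8, 17.0 and 19.6 to 29.5, 35.9, 30.3 and 39.2 CPM (log2 0.93, SE 0.097, edgeR adjusted p 1.1e-06). ZNF701 rose by 0.86 on the log2 scale (SE 0.13, edgeR adjusted p 3.32e-05), and it overlaps ZNF808 on the same strand. In all 3 genes every NEL library was above every DMSO library. The 19q-10 neighbourhood as a whole had 6 higher and 6 lower of 20 tested.

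ZNF587B and ZNF551, near the end of 19q, had the largest falls in U937. ZNF551 (ENSG00000204519, chr19:58193337-58228669) went from 16, 17.1, 15.98 and 16.9 to 6.66, 6.29, 6.003 and 5.86 CPM. The groups were far apart, and it was 2.65-fold lower (log2 -1.41, SE 0.086, edgeR adjusted p 5.69e-09). ZNF587B went from 6.44, 9.21, 5.89 and 7.70 to 2.34, 2.89, 2.35 and 1.87 CPM (3.08-fold lower, log2 -1.62, SE 0.18, edgeR adjusted p 2.26e-06). It overlaps ZNF587 and ZNF586 on the same strand, so its reads are hard to assign. ZNF784 fell by 0.97 on the log2 scale (SE 0.21, edgeR adjusted p 0.00112).

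ZNF480 in 19q-10, one of the members higher in U937 than in KG1A, went from 93.9, 100.3, 94.4 and 99.7 to 43.8, 49.5, 45.4 and 49.2 CPM. It was 2.06-fold lower with NEL, with no overlap (log2 -1.04, SE 0.052, edgeR adjusted p 7.15e-10). ZNF296, a short zinc finger gene known as a partner of KLF4, went from 17.9, 15.8, 15.4 and 15.8 to 8.57, 8.25, 8.44 and 8.32 CPM (log2 -0.94, SE 0.085, edgeR adjusted p 2.45e-07), again without overlap. ZNF559 on 19p fell by 0.96 on the log2 scale and overlaps ZNF177 on the same strand.

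Abundant members and others with known roles had smaller changes in U937. ZNF146 fell by 0.26 (SE 0.056, edgeR adjusted p 0.000915), ZNF90 by 0.45 (SE 0.044, edgeR adjusted p 5.72e-07) and ZNF587 by 0.25 (SE 0.064, edgeR adjusted p 0.00291) on the log2 scale. ZNF675 was called higher with a log2 change of 0.22 (SE 0.09, edgeR adjusted p 0.0404), and ZNF224 with one of 0.24 (SE 0.092, edgeR adjusted p 0.0343). The ZNF675 call was lost without any 1 of 6 libraries (edgeR adjusted p 0.0509 to 0.13), namely each DMSO library and NEL libraries 3 and 4. That of ZNF224 was lost without DMSO library 1 or 3 (edgeR adjusted p 0.116 and 0.0797) or NEL library 2 or 3 (0.115 and 0.0726). ZNF536, silent in KG1A, went from 6.19 to 9.02 CPM with DMSO to 9.83 to 10.6 CPM with NEL (log2 0.49, SE 0.11, edgeR adjusted p 0.00165). ZNF274 and ZNF417 were not called (log2 0.094 and -0.25, edgeR adjusted p 0.155 and 0.227), and ZNF274 was called without NEL library 1 (edgeR adjusted p 0.0484).

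Members silent in U937 stayed near 0 with NEL. Of the 57, 52 had at most 3 reads over the 4 NEL libraries as well, and ZNF350 had the most with 10. The 57 genes together had 14, 15, 7 and 12 reads in the DMSO libraries and 14, 17, 20 and 24 in the NEL libraries. They had been chosen for low DMSO counts, so this difference is given as a description. Against a median of 17.7 CPM in KG1A with DMSO (range 5.17 to 91.7, the highest being ZNF43), these totals are small.

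A few low members gained reads in U937, and others lost reads. ZNF382, a KRAB gene of 19q-4, had 10 reads in the 4 DMSO libraries and 53 in the 4 NEL libraries, which is 0.0885 to 0.447 against 1.02 to 1.39 CPM (log2 2.30, SE 0.38, edgeR adjusted p 0.000101). ZNF358 had 4 and 23 reads, and ZNF793 13 and 42, and both were too low for the test within U937. The 3 genes were at 15.5 to 77.1 CPM in KG1A with DMSO. In the other direction, ZNF564 had 4, 2, 1 and 5 reads in the U937 DMSO libraries and 0, 1, 0 and 3 with NEL. ZNF610 had 4, 6, 5 and 3 reads with DMSO and 1, 5, 3 and 2 with NEL.

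Over the 152 members tested in both lines, 33 were called in both. NEL raised 19 in both, among them ZNF93, ZNF714, ZNF431, ZNF724, ZNF675, ZNF506, ZNF266 and ZNF846, and lowered 9 in both, among them ZNF507, ZNF565, ZNF653, ZNF559 and ZNF480. Another 4 were higher in KG1A and lower in U937 (ZNF473, ZNF551, ZNF584 and ZNF324B), and ZNF546 was lower in KG1A and higher in U937. Across these 152 genes the log2 changes in the lines had a Pearson correlation of 0.39. Of all 12590 genes tested in both lines, 11.7% were called higher in both, 12.6% lower in both and 11.1% in opposite directions, against 12.5%, 5.92% and 3.29% of these members, and the correlation over all of them was 0.30. The 2 changes come from different libraries, the genes are not independent replicates, and library composition is shared within each line.

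The difference of the NEL effect, U937 less KG1A, was tested in 1 fit over all 16 libraries. It was called higher for 24 and lower for 36 of 232 members tested, against 21.1% higher and 26.3% lower among all 16117 genes tested. Many of these members had few or 0 reads in U937, where a difference is hard to call, so the shares are not fully alike. With DESeq2's size factors in place of TMM the split turned to 32 higher and 23 lower, as the median over all genes moved from -0.034 to 0.050, so the balance of small differences depends on the scaling. Among the 152 members tested in both lines, 21 were higher and 35 lower. The share over all genes tested in both lines was not computed for the difference. On 19p, 9 of 40 were higher and 7 lower, and on 19q 12 and 28 of 112. These splits use TMM. At the end of 19q (19q-11) 2 were higher and 13 lower of 47, and in 19p-5 3 and 2 of 14.

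ZNF551 had the clearest difference. In KG1A it went from 27.5, 26.3, 23.7 and 23.3 to 30.9, 30.0, 33.3 and 29.2 CPM, a small rise (log2 0.28, SE 0.07, edgeR adjusted p 0.00397), whereas it fell in U937. The difference was -1.70 on the log2 scale (SE 0.11, edgeR adjusted p 3.93e-11). ZNF587B differed by -1.69 (SE 0.26, edgeR adjusted p 1.15e-05), ZNF324B by -1.21 (SE 0.2, edgeR adjusted p 2.58e-05) and ZNF584 by -0.96 (SE 0.15, edgeR adjusted p 1.52e-05). These 4 genes lie in 19q-11, but other members with lower differences do not. ZNF610 in 19q-10 differed by -1.24 (edgeR adjusted p 0.0457), with 6 reads or fewer in each U937 library. ZNF480 in 19q-10 differed by -0.89 and ZNF296 in 19q-7 by -0.85. In the other direction ZNF461 differed by 1.34 (SE 0.16, edgeR adjusted p 6.29e-07), ZNF83 by 1.01 (SE 0.11, edgeR adjusted p 1.33e-07), ZNF846 by 0.97 and ZNF160 by 0.86. ZNF382 differed by 2.01 and ZNF358 by 1.99, both from the few U937 reads given above. The difference of 3.51 fitted for ZNF44 rests on 0 and 6 reads in U937 and is no measure of size, and its call was lost without any of the 4 DMSO libraries or NEL library 4 of U937 (edgeR adjusted p 0.0519 to 0.081).

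TRIM28, which lies on chromosome 19 itself but is no ZNF gene, was at 289, 288, 284 and 292 CPM in KG1A with DMSO and 268, 258, 268 and 265 CPM with NEL. In U937 it was at 709, 713, 678 and 665 CPM with DMSO and 390.1, 397, 397 and 411 CPM with NEL. It thus fell 1.73-fold in U937 (log2 -0.79, edgeR adjusted p 7.91e-10), without overlap, and by 0.13 on the log2 scale in KG1A (edgeR adjusted p 0.00523), a call that limma-trend on log2(RPKM + 0.5) did not make (adjusted p 0.109). The NEL effects differed by -0.67 (edgeR adjusted p 2.11e-10). TRIM28 was 2.26-fold higher in U937 than in KG1A with DMSO (log2 1.18, edgeR adjusted p 4e-14), the line with the lower member levels.

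Among 45 genes whose proteins act with KRAB zinc finger proteins or on the chromatin they mark, all 45 were tested. In KG1A NEL gave 5 higher and 19 lower (median -0.078), and in U937 11 higher and 22 lower (median -0.14), against the shares of all genes above. SETDB1 fell by 0.29 and CBX5, which encodes HP1 alpha, rose by 0.28 on the log2 scale in KG1A. In U937 CBX5 rose by 0.68 and the histone demethylase KDM4B rose by 0.87, having fallen by 0.19 in KG1A. Subunits of the NuRD deacetylase complex went both ways there: MBD3, GATAD2A, MTA2, HDAC2, CHD4 and MTA1 were called lower (log2 -0.93 to -0.34), and CHD3, RBBP4, RBBP7 and MBD2 higher (0.12 to 0.51). Whether these levels have a part in the members' levels was not tested.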

How the data were processed

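RNA was measured in 16 libraries, 4 for each of the 4 groups of line and treatment. Polyadenylated RNA was made into stranded libraries (Kapa kit), per the labels' protocols. The submitters' processing notes name bcl2fastq 2.18.0.12, TopHat2, HTSeq 0.11.2 and the hg19 (GRCh37) build, and neither the annotation nor the strand setting is given in the sources used. Raw read counts per gene and RPKM values are the 2 tables the authors deposited. RPKM could be recomputed from the counts, exon lengths and totals to within a relative deviation of 1.86e-07, and were used to compare genes and in alternatives only. Of the gene IDs, 32562 matched a symbol, every column matched a sample (0 left over), and no 2 libraries held identical values.

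Counts were tested with edgeR 4.0.16 (TMM, quasi-likelihood) in R 4.3.3 after its filter (minimum count 10, minimum total 15), on the whole table: NEL against DMSO within each line, the difference of the NEL effect, and the lines with DMSO. In KG1A 17 members were not tested, in U937 93, for the difference 15 and between the lines 18. Scripts were tested on simulated data. Named genes were the 6 largest called changes in each direction of the NEL and line comparisons, at 2 CPM or more. These also had to have groups that did not overlap, so their lack of overlap is no support. Also named were the 4 largest called differences in each direction at 2 CPM or more, the 6 highest RPKM and a list of known members. Other genes given with values were chosen after their values had been seen. The members and all lists were chosen with earlier results of these data known. Same-numbered libraries of different groups deviated together, with correlations of 0.277 to 0.368, so the number was tried as a block, although the best match was often another library. Alternatives were DESeq2 1.42.0 (size factors and test), upper quartile factors, limma-trend (limma 3.58.1) on log2(RPKM + 0.5) and log2(RPKM + 0.1), other filters, a threshold of 0.01, the block, and leaving out libraries. Figures used matplotlib 3.10.9. Start regions were read from RefSeq's GRCh38.p14 table and protein domains from GENCODE v29, both by name or gene ID, with no coordinates carried between builds. Intervals and limits from 0 reads cover counting error only.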

Additional observations from a re-analysis of the deposited data

Results flagged for a closer look

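Single libraries and differences between the lines were flagged among the named members, neither more often than the background given with them. Of 183 groups of 4 libraries examined, 7 held a library far from the other 3 by Dixon's criterion, which chance meets in about 1 of 20 groups. In KG1A with NEL, ZNF461 was at 15.8 CPM in the third library, below the others at 20.1 to 20.7. In KG1A with DMSO, ZNF160 was at 73.5 CPM in the second library (others 64.5 to 66.0), ZNF266 at 77.0 in the same library (70.6 to 71.4), ZNF493 at 53.1 in the first (46.3 to 47.0) and ZNF350 at 19.6 in the fourth (15.5 to 16.2). In U937, ZNF114 was at 6.87 CPM in the third NEL library (4.93 to 5.09), and ZNF675 at 11.4 in the fourth DMSO library (13.2 to 13.3).

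The NEL effect differed between the lines (edgeR, U937 less KG1A, adjusted p under 0.05) for 24 of the 54 genes examined (44.4%), against 47.4% of all genes tested. Of the 54, 8 had been named because their called differences were the largest. Differences on the log2 scale were higher for ZNF44 (3.51, resting on 0 and 6 reads in U937), ZNF382 (2.01), ZNF358 (1.99), ZNF793 (1.43), ZNF461 (1.34), ZNF83 (1.01), ZNF846 (0.97), ZNF160 (0.86), ZNF701 (0.56), ZNF266 (0.42) and ZNF224 (0.38). They were lower for ZNF551 (-1.70), ZNF587B (-1.69), ZNF610 (-1.24), ZNF324B (-1.21), ZNF584 (-0.96), ZNF480 (-0.89), ZNF552 (-0.87), ZNF296 (-0.85), ZNF559 (-0.74), TRIM28 (-0.67), ZNF90 (-0.52), ZNF317 (-0.31) and ZNF146 (-0.25).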

How the results depend on the processing

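In KG1A the 28 lower members numbered 18 with DESeq2's test, 13 and 11 by limma-trend at pseudocounts of 0.5 and 0.1 on RPKM, and 14 at an adjusted p under 0.01. At that threshold U937 had 26 higher in place of 40, the difference between lines 13 higher in place of 24, and the DMSO comparison 15 higher in U937 in place of 23. The 36 lower differences were 23 with DESeq2's size factors, 23 by its test and 57 by limma-trend at a pseudocount of 0.5. With single libraries left out, KG1A had 51 to 61 higher and 20 to 26 lower, U937 33 to 40 and 43 to 48, the difference 19 to 24 and 29 to 35, and the DMSO comparison 17 to 22 and 191 to 195. With the replicate block the counts were 72 and 39, 46 and 51, 29 and 43, and 24 and 197.

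Of 1812 values of single genes under alternatives, 1673 kept their direction and side of the threshold, 89 lost the call, 20 gained one, 4 changed sign with a call in 1 of the fits, and 26 changed sign without a call in either. These 26 were of ZNF146 and ZNF417 in KG1A (to at most 0.045 and 0.072) and of the differences of ZNF274, ZNF587, ZNF91 (to 2.14) and ZNF331 (to -0.85). The 4 with a call were differences between lines in genes near 0 in U937: ZNF44 (-0.12), ZNF793 (-0.075) and ZNF331 (-0.38) with limma-trend on log2(RPKM + 0.5), and ZNF331 (-0.38) on log2(RPKM + 0.1). The cause was not tested. Besides ZNF224 and ZNF274, the block moved the difference of ZNF610 to an edgeR adjusted p of 0.0501, a call also lost without most single libraries (up to 0.144). That of ZNF146 was lost with DESeq2's size factors (edgeR adjusted p 0.0831). The silent share in U937 cannot be resolved below the 3 reads that a 0 allows.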
